A study of Cricetulus griseus with 4 samples.

Results

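Cadherins, connexin 43 and the scaffold protein DLG5 are parts of the contacts between neighbouring cells. The genes described here are CDH3, CDH5, CDH11, GJA1 and DLG5, which make up 5 of the 347 genes that could be named on the array. Probes were taken as members where their annotation gives 1 gene symbol and that symbol is one of the 5. They are 6 of the 350 probes with a single symbol, because GJA1 is on 2 probes, which are described apart. The 5 genes were picked with their ratios on these arrays already known, so the members' values are given as a description, without a test.

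Cadherins are calcium-dependent adhesion proteins that reach from one cell to the next and are tied inside the cell to catenins and actin. Connexins assemble into gap junction channels, through which ions and small molecules pass between cells. Scaffolds of the membrane-associated guanylate kinase family, to which DLG5 belongs, organise membrane proteins and cell polarity at such contacts.

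Total RNA labelled as Chinese hamster was measured on 4 two-channel arrays, each with RNA of the chromosomally stable clone RT210B in channel 1. Channel 2 held a mixture of 2 chromosomally unstable clones in equal amounts, LS12 and 10-107-9 in mixture 1 and Fe10-3 and 10-56-11 in mixture 2. Each mixture was measured on 2 arrays, and the question was whether chromosomal stability goes with a difference in gene expression in isogenic clones. The labels name no parent line; such clone names are known from work on a hamster ovary cell line that carries a human chromosome, with clones isolated after irradiation. RT210B is 1 clone, each mixture pools its clones so that they cannot be separated, and the labels do not say whether replicates were separate cultures.

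Each value is the log2 ratio between the channels of an array, averaged over the 2 spots of a probe, minus that array's median over all its probes. The medians subtracted ran from -0.53 to -0.12. The labels do not settle which channel was divided by which. A gene is therefore said to lie on the positive or the negative side of its array's middle, and no pool is named as the higher one. A value of 1 or -1 is 2-fold from that middle. No spot intensities were used here, so the level of these genes, and whether a probe was above background, is unknown. Ratios spread more widely on the arrays of mixture 1 (SD over probes 1.14 and 1.05) than on those of mixture 2 (0.80 and 0.47). The array names human genes, and the match of hamster RNA to these probes was not measured. All 5 symbols exist in RefSeq's Chinese hamster table (assembly CriGri-PICRH-1.0), where Cdh3, Cdh5 and Cdh11 lie on the same chromosome. No sequences of these probes, promoters or proteins were used here. Of the markers fixed for endothelial, epithelial, osteoblast and fibroblast cells, CDH2 was the only one on a named probe, so the cell type was not checked.

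Connexin 43 (GJA1) lay on the negative side in mixture 1 on both of its probes, less far on the second, and near the middle in mixture 2. CDH5, the cadherin of endothelial cell contacts, and DLG5 lay far on the negative side in mixture 2. CDH3, placental cadherin, was negative on all 4 arrays, and CDH11, a cadherin of mesenchymal and bone-forming cells, was positive on all 4, although without centring it stood at 0.10 and -0.12 in mixture 2.

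CDH11 had the steadiest ratio among the members. Its ratio was 0.96 and 0.94 in mixture 1 and 0.53 and 0.41 in mixture 2. The mean was 0.95 ± 0.01 (SD, n = 2) in mixture 1, 1.93-fold from the middle, and 0.47 ± 0.09 (SD, n = 2) in mixture 2, 1.39-fold. The arrays of mixture 1 were all above those of mixture 2, yet the ratios stood at much the same place within each array. Between 73.2% and 83.5% of probes lay below CDH11 on every array. Its duplicate spots differed by 0.03 to 0.36, and its average gap of 0.15 was smaller than that of most probes, with 18.0% of probes having a smaller one. Across the array, probes on the positive side had closer duplicates: their median gap was 0.07 to 0.24 on the 4 arrays, against 0.23 to 0.57 on the negative side. With the trend of the ratio on this gap removed, CDH11 lay at 0.32 in mixture 1 and 0.07 in mixture 2. The part of the duplicate gap in its ratio was not tested. Without centring its mixture 2 value was -0.01, so its positive side in mixture 2 is relative to the other probes of the array.

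CDH3 was negative on all arrays, but by unequal amounts. Its ratio was -0.73 and -1.10 in mixture 1, with a mean of -0.91 ± 0.26 (SD, n = 2), 1.88-fold from the middle. In mixture 2 the arrays gave -1.83 and -0.14, with a mean of -0.98 ± 1.20 (SD, n = 2). The similar means therefore hide a difference in agreement: the spread between replicates exceeded the mean in mixture 2. On replicate 1 of mixture 2 only 2.78% of probes lay lower than CDH3, and on replicate 2 39.2% did. Without replicate 1 of mixture 2 its mixture 2 value was -0.14, and without replicate 2 it was -1.83. The duplicate spots of CDH3 agreed within 0.56 on each array, so the disagreement was between arrays and not between spots.

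CDH5, which holds endothelial cells together, was low on both arrays of mixture 2. It lay at -1.79 and -1.32 there, with a mean of -1.55 ± 0.33 (SD, n = 2), 2.94-fold from the middle. The arrays of mixture 1 gave -0.19 and 0.67, with a mean of 0.24 ± 0.61 (SD, n = 2) that is smaller than its spread. The arrays of the mixtures did not overlap, with 1.13 between the nearest pair. Within replicate 2 of mixture 2, the array with the narrowest spread, only 0.869% of probes lay lower than CDH5. Its duplicate spots were far apart, by 1.22 and 0.52 in mixture 1 and by 1.55 and 0.23 in mixture 2, and 89.0% of probes had a smaller average gap. In mixture 2 the 4 spot readings ran from -2.56 to -1.01, all on the negative side. In mixture 1 the first spot alone gave -0.22 and the second 0.63.

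**Figure D1:**
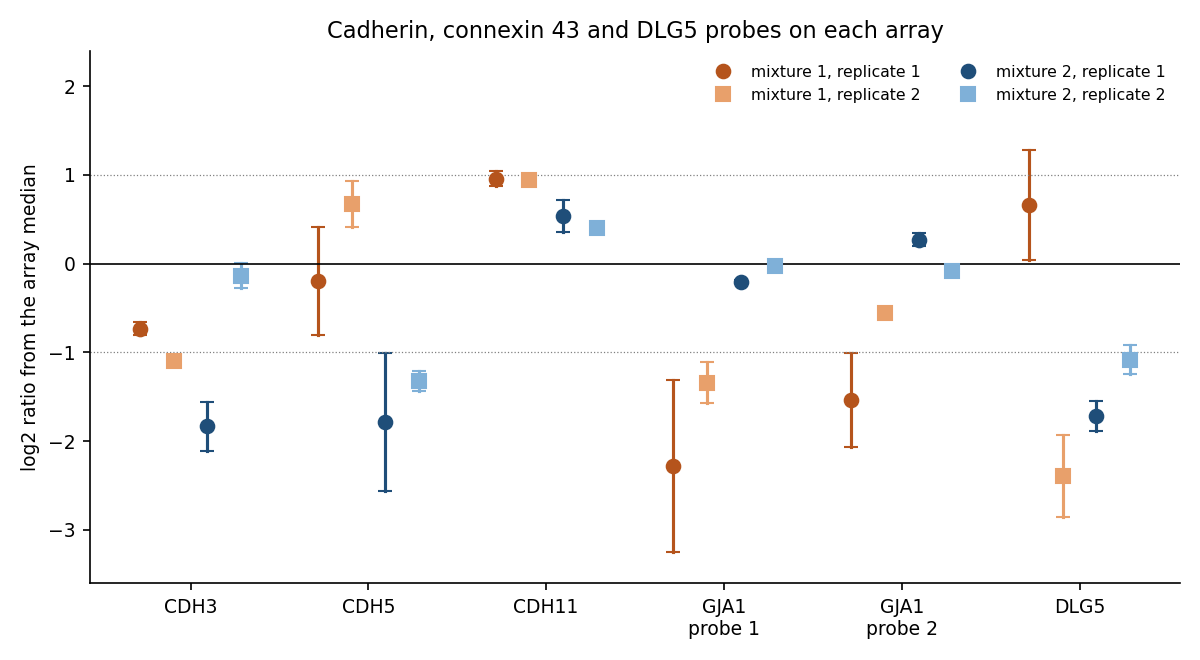
Log2 ratio from the array median (vertical axis) for the 6 member probes on each of 4 arrays; large symbols are the mean of 2 duplicate spots, and the bars join those 2 spots. CDH11 lies between 0.41 and 0.96 on all arrays (centred values; without centring -0.12 on 1 array), both GJA1 probes are lowest in mixture 1, and DLG5 falls on opposite sides on the 2 arrays of mixture 1 (0.66 and -2.39).

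The 2 probes of GJA1, the gap junction protein connexin 43, gave the same order of arrays in mixture 1 but not the same size. The first probe (spots 923 and 924) gave -2.28 and -1.34 in mixture 1, with a mean of -1.81 ± 0.67 (SD, n = 2), 3.51-fold from the middle. The second probe (spots 1815 and 1816) gave -1.53 and -0.56 there, with a mean of -1.04 ± 0.69 (SD, n = 2), 2.06-fold. Both probes were negative on both arrays of mixture 1, and both were lower on replicate 1 than on replicate 2. In mixture 2 the first probe lay at -0.20 and -0.02 and the second at 0.27 and -0.09. For neither probe did the arrays of mixture 1 overlap those of mixture 2, with 1.14 between the nearest pair for the first probe and 0.47 for the second.

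The first GJA1 probe was lower than the second by 0.75, 0.78 and 0.47 on 3 arrays, and higher by 0.07 on replicate 2 of mixture 2. The root mean square difference between the 2 probes over the 4 arrays was 0.59. Of the 1150 other probes, 96 were nearer to the first GJA1 probe than the second was, and 212 were nearer to the second than the first was. The other genes on 2 probes, UBE2R2 and ESR1, had root mean square differences of 0.55 and 1.47. The first probe's low value on replicate 1 of mixture 1 came from spots that read -1.31 and -3.25, a gap of 1.94. With the second spot alone its mixture 1 mean was -2.45, and with the first alone it was -1.23, on the negative side either way. For the second probe, leaving out replicate 1 of mixture 1 gave -0.56 and leaving out replicate 2 gave -1.53.

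DLG5 had the widest spread between replicates of any member in mixture 1. Its ratio was 0.66 on replicate 1 and -2.39 on replicate 2, where only 0.261% of probes were lower. On replicate 1 the duplicate spots read 1.28 and 0.04, the second of them at the middle. On replicate 2 both were negative, at -1.93 and -2.85. The mean of -0.86 ± 2.16 (SD, n = 2) therefore describes neither array. In mixture 2 DLG5 lay at -1.71 and -1.08, with a mean of -1.40 ± 0.45 (SD, n = 2), 2.63-fold from the middle. All 4 spots of mixture 2 were negative, from -1.88 to -0.92. Over all arrays the average gap between its duplicates was 0.71, and 79.9% of probes had a smaller one. The arrays of the mixtures overlapped, since replicate 1 of mixture 1 lay above and replicate 2 below both arrays of mixture 2.

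**Figure D2:**
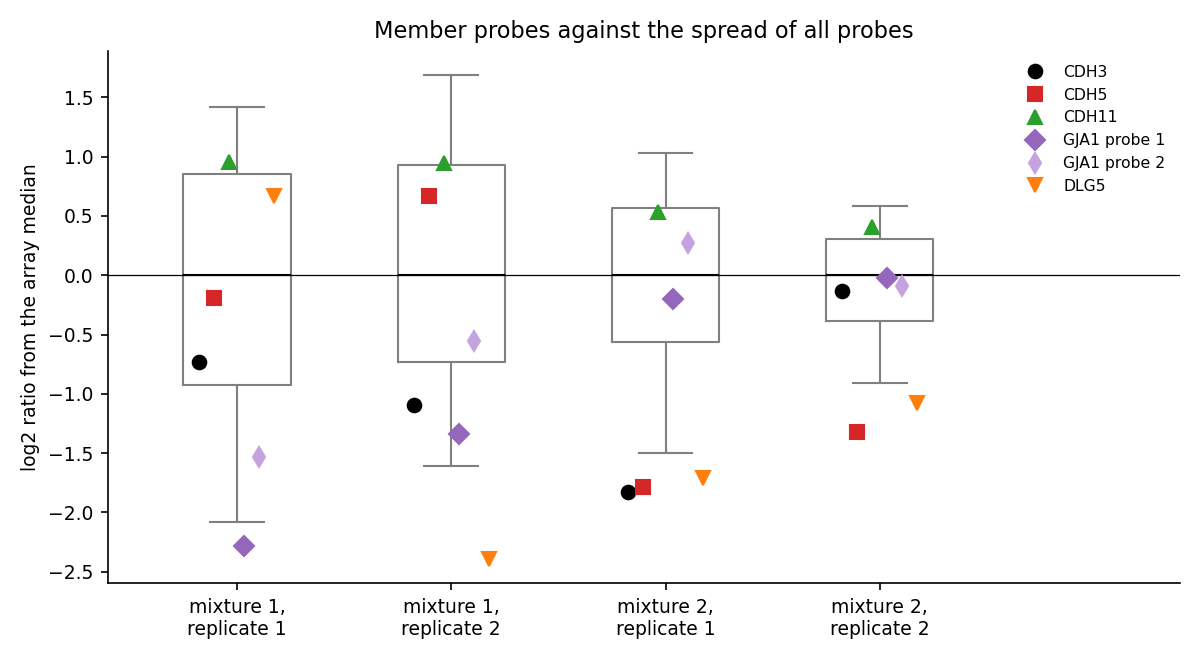
Log2 ratio from the array median for the 6 member probes (symbols) over the distribution of all probes on each array; boxes span the quartiles with the median line at 0, and whiskers run from the 5th to the 95th percentile. CDH5 and DLG5 lie below the lower whisker on both arrays of mixture 2, and CDH11 keeps a similar place, near the upper edge of the box, on all 4 arrays.

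Counted by size, the first GJA1 probe was the only member at least 2-fold from the middle on both arrays of mixture 1, on the negative side, where 9.55% of all probes were. In mixture 2 CDH5 and DLG5 were at least 2-fold on both arrays, again on the negative side, as were 1.91% of all probes. The members were picked with these values already known, so the count says nothing further about them. CDH11, CDH3 and the first GJA1 probe had 1 sign on all 4 arrays, as did 45.7% of all probes. No limma call is given for a member, since the members were chosen with these ratios in view. Over the whole array no probe passed in mixture 2 in limma with Benjamini-Hochberg adjustment (0 calls, 0%), while 226 probes (19.6%) had an unadjusted p under 0.05. That fit uses a spread shared by both mixtures, and with mixture 2 fitted on its own arrays 113 probes passed.

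The values of CDH5 and GJA1 in mixture 1 minus mixture 2 had opposite signs. CDH5 had a value of 1.79 (SE 0.464, limma), while the first and second GJA1 probes had -1.70 (SE 0.461) and -1.14 (SE 0.471). CDH11 had 0.48 (SE 0.401), DLG5 0.53 (SE 0.848) and CDH3 0.07 (SE 0.577). The differences of DLG5 and CDH3 were smaller than their standard errors. These standard errors rest on a spread shared by both mixtures. No test is read from them for any member, since the members were picked with their ratios known. The arrays of the mixtures did not overlap for 4 of the 6 member probes, CDH5, CDH11 and both GJA1 probes, as for 62.2% of all probes. No probe passed for this difference in limma (0 calls, 0%), while 275 had an unadjusted p under 0.05 (23.9%). Both mixtures were set against RT210B, so values of the 2 mixtures share that clone.

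Of the 347 other genes listed for cell junctions and adhesion, 17 were on a probe with 1 symbol. No gene of the tight junction and polarity list, or of the list of junction regulators, was among them, so no scaffold other than DLG5 could be described. In mixture 1, 6 of the 17 passed in limma with Benjamini-Hochberg adjustment, 5 on the negative and 1 on the positive side, or 35.3% against 43.1% of all probes. Their median was -0.49, against -0.03 over all probes. In mixture 2 none of the 17 passed (0 calls in limma, as for the whole array), with 14 negative values and a median of -0.33, against -0.00299 over all probes. In the mean of both mixtures 3 passed, ITGAV and ITGB3BP on the negative side and CD99L2 on the positive, or 17.6% against 38.7% of all probes. CD99L2 kept this call with each array left out. ITGAV lost it without replicate 1 of mixture 1 (limma adjusted p 0.0533), without replicate 1 of mixture 2 (0.180) and with the arrays scaled to one spread (0.0525). ITGB3BP lost it when replicate 2 of mixture 1 was left out (0.0544 in limma) and when either array of mixture 2 was (0.0952 and 0.0785). With the first spot alone both ITGAV (limma adjusted p 0.0577) and ITGB3BP (0.180) lost the call. With the trend on the duplicate gap removed none of the 3 passed (0 calls in limma).

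Among the other cadherins none passed in limma with centred values of both spots and all arrays, for either mixture or for their mean. Under other settings CDH6 and PCDH1 passed on the negative side in mixture 2 without centring and with the arrays scaled to one spread, and PCDH1 in the mean without centring. In mixture 1 CDH8 passed on the positive side with the first spot alone and without replicate 2, and CDH2 on the negative side with the second spot alone. CDH2, neural cadherin, lay at -0.28 and -0.96 in mixture 1 and at 0.65 and -0.10 in mixture 2. CDH6 lay at 0.38 and 0.90 in mixture 1 and at -0.91 and -0.63 in mixture 2, so that each mixture's arrays were on their own side. CDH8 had 1.31 and -0.04 in mixture 1 and -1.32 and -0.23 in mixture 2. The protocadherin PCDH1 lay at 0.00 and -0.32 in mixture 1 and at -1.10 and -0.41 in mixture 2. CDH6, CDH8 and PCDH1 had lower means in mixture 2 than in mixture 1, like CDH5 and CDH11, while CDH2 had the reverse order, like both GJA1 probes. CDH11 was the only one of the 7 cadherin family genes that was positive on every array, which holds for the centred values and not without centring.

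GJB1, another gap junction protein and the only other connexin gene measured, passed on the negative side in mixture 1. It lay at -1.21 and -0.75 there, with a mean of -0.98 (SE 0.340, limma adjusted p 0.0448), and at 0.17 and -0.84 in mixture 2. CTNNAL1, a protein related to alpha-catenin, had -0.98 and -0.87 in mixture 1 and 0.03 and -0.04 in mixture 2. Its mixture 1 mean was -0.93 (SE 0.283, limma adjusted p 0.0287). With the first spot alone neither CTNNAL1 (limma adjusted p 0.0506) nor GJB1 (0.135) passed in mixture 1. PTPRF, a receptor tyrosine phosphatase found at adherens junctions, lay between -0.69 and -0.36 on all 4 arrays. With centred values of both spots and all arrays it did not pass (limma adjusted p 0.0509 in the mean). In mixture 2 and in the mean it passed on the negative side without centring and with the arrays scaled to one spread. With the first spot alone it passed in mixture 1 and in the mean. EVPL, the desmosomal plaque protein envoplakin, had -1.46 and 1.52 on replicates 1 and 2 of mixture 1. Its arrays lay on opposite sides there, as for DLG5, but in the reverse order. Without replicate 1 of mixture 1 neither GJB1 (-0.75, limma adjusted p 0.181) nor CTNNAL1 (-0.87, 0.117) passed, and CTNNAL1 did not without replicate 2 either (-0.98, 0.0683).

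Of the integrin and focal adhesion list, which holds receptors of the matrix and their partners, all 6 measured genes had negative means in both mixtures. These means were negative also with the arrays scaled to one spread, which keeps the sign on each array. Without centring they could only be lower, since the medians subtracted were all negative. With the trend on the duplicate gap removed ILK turned positive in mixture 1 and ITGA7 and PXN in mixture 2; ITGAV and PXN were positive in mixture 2 without its replicate 1, and in mixture 1 ILK was positive without replicate 1 and PXN without replicate 2. In mixture 1 ITGAV (-1.30, SE 0.327), ITGA7 (-0.91, SE 0.317) and ITGB3BP (-0.94, SE 0.295) passed, with limma adjusted p-values of 0.0148, 0.0453 and 0.0314. Without replicate 1 of mixture 1 neither ITGAV (-0.99, limma adjusted p 0.0747) nor ITGA7 (-0.51, 0.385) passed, and without replicate 2 ITGB3BP did not (-0.69, 0.207). ITGA7 also failed without either array of mixture 2 (limma adjusted p 0.0509). With the first or the second spot alone neither ITGA7 (limma adjusted p 0.0516 and 0.135) nor ITGB3BP (0.242 and 0.0550) passed in mixture 1. ITGB3BP encodes a nuclear and centromere protein named for its binding to an integrin tail. With centred values of both spots and all arrays ITGA9, ILK and PXN did not pass in mixture 1, at -0.49, -0.08 and -0.50. ILK lay at -1.31 and 1.14 on replicates 1 and 2 of mixture 1, and PXN at 0.28 and -1.27. With either of these arrays left out, the mixture 1 value of ILK or PXN therefore takes the side of the remaining array. Without centring ITGA9 passed in limma, with a negative value, when the mixtures were averaged. In the list of other adhesion molecules CD99L2 passed at 1.56 (SE 0.307, limma adjusted p 0.00884) in mixture 1 and was positive on all 4 arrays. The limma calls in mixture 1 fell from 6 genes to CD99L2 alone with the arrays scaled to one spread, and to CD99L2 and CTNNAL1 with the trend on the duplicate gap removed.

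**Figure D3:**
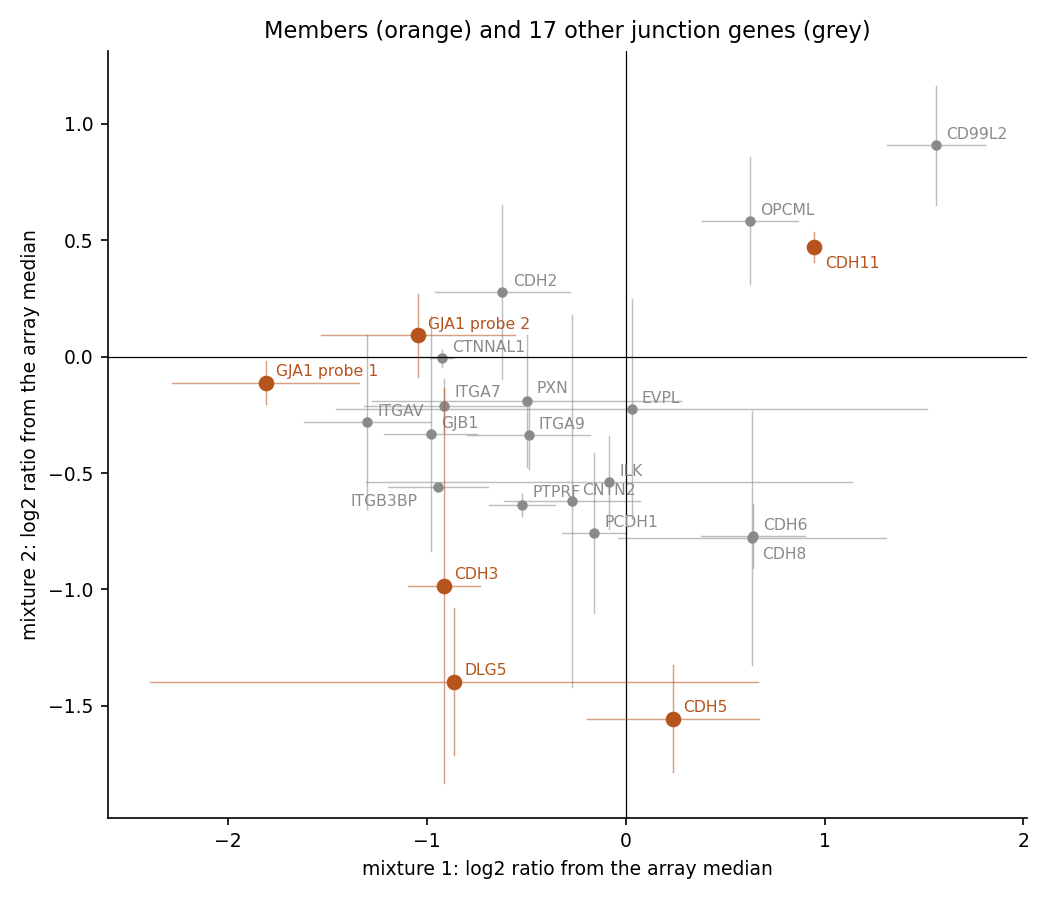
Mean log2 ratio from the array median in mixture 1 (horizontal axis) and mixture 2 (vertical axis) for the 6 member probes (orange) and 17 other junction and adhesion genes (grey); each line spans the 2 arrays of a mixture. CDH11 lies in the upper right with CD99L2 and OPCML, the GJA1 probes lie to the left near 0 in mixture 2, and CDH5 lies lowest in mixture 2.

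Likeness was measured as the root mean square difference over the 4 arrays, and the 3 nearest probes with 1 symbol were named for each member. CDH11 had close neighbours: GAS1 differed from it by 0.06, DDX17 by 0.12 and MAGEA4 by 0.12. The second GJA1 probe had STAT4 (0.13), RHOG (0.14) and GCDH (0.17), and the first had NR2F1 (0.22), ADD3 (0.26) and SLC26A2 (0.29). No gene was nearest to both probes of GJA1. CDH5 was nearest to CD86 (0.47), COL2A1 (0.54) and MAPK13 (0.56), and CDH3 to CNR1 (0.45), AQP7 (0.46) and NSMCE3 (0.48). DLG5 stood most alone, with PLEKHO1 at 0.60, CA3 at 0.81 and RAD50 at 0.84. Among the members themselves the nearest pair of different genes was DLG5 and CDH3, at 1.06, while CDH11 and DLG5 were farthest apart, at 2.15. Of the 1150 other probes, 56 were nearer to DLG5 than CDH3 was, and 372 were nearer to CDH3 than DLG5 was.

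The side of CDH3 in both mixtures, of both GJA1 probes and CDH11 in mixture 1, and of CDH5 and DLG5 in mixture 2 was the same under each of 11 alternatives. Several of them could not change it. A mixture's mean is unchanged by leaving out an array of the other mixture, by the replicate block and by its own fit. Each of these values had the same sign on both arrays, so scaling or leaving out an array could not turn it. No centring lowers every value, so it could turn only CDH11. CDH5 in mixture 1 ranged from -0.22 to 0.67 over the 11 alternatives and DLG5 in mixture 1 from -2.39 to 0.66, so neither had a settled side there. Without replicate 2 of mixture 1 DLG5 lay at 0.66 and CDH5 at -0.19. The first and second GJA1 probes ranged from -0.60 to 0.16 and from -0.39 to 0.27 in mixture 2, on both sides of the middle.

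**Figure D4:**
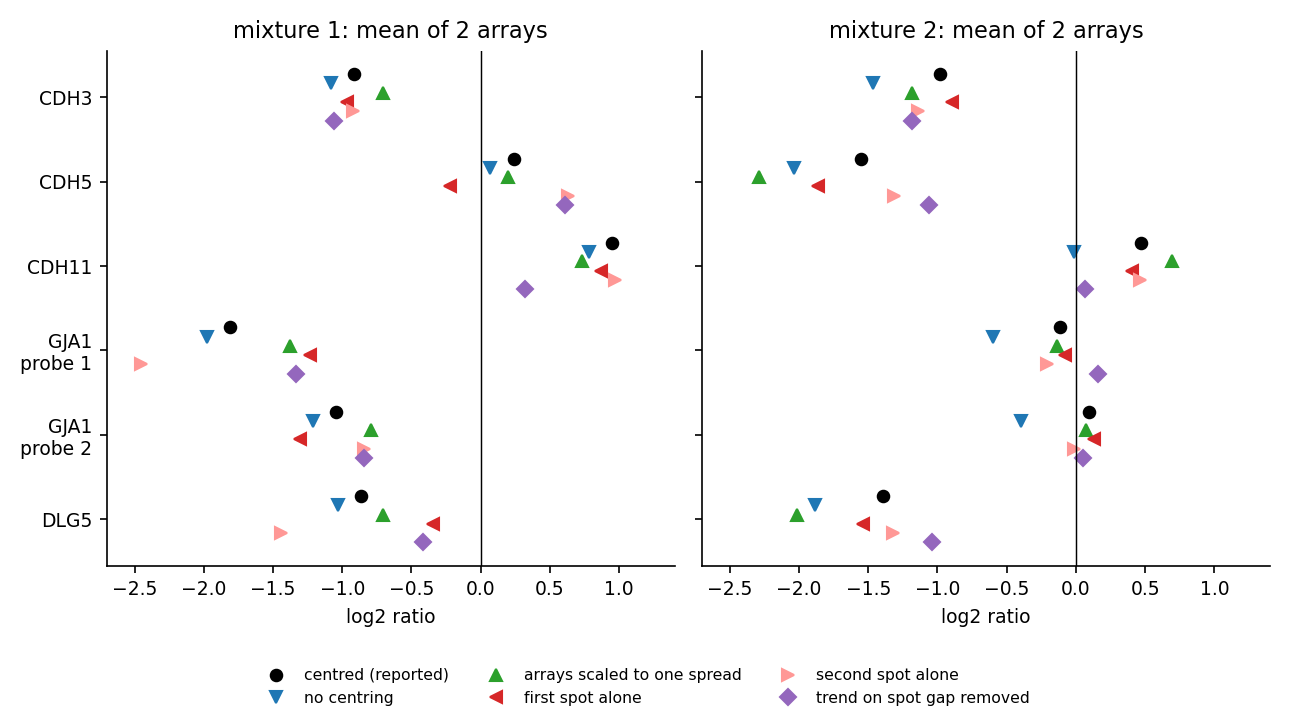
Mean log2 ratio of the 2 arrays of mixture 1 (left) and mixture 2 (right) for the 6 member probes, as reported (black) and under 5 other ways of treating the arrays or the duplicate spots. Both GJA1 probes stay negative in mixture 1, CDH5 and DLG5 stay more than 2-fold on the negative side in mixture 2, and CDH11 moves from 0.47 to -0.01 in mixture 2 without centring.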

How the data were processed

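Two-channel array values from 4 arrays were used. The deposited values are log2 ratios for 2304 spots per array, and none is missing. Per the labels, a normalization factor of 3.8 belongs to mixture 1 replicate 2 and one of 1.169 to mixture 2 replicate 1; how they were used, and with which dyes, scanner and background correction, is not given in the sources used here. Adjacent spots were averaged to 1 probe, since all 358 annotated pairs carried the same annotation and paired spots correlated at r = 0.725 to 0.819. Of these probes 350 had 1 symbol, 8 several and 794 are unnamed here. Each array was centred on its median. limma 3.58.1 in R 4.3.3 (lmFit, eBayes) was fitted over all probes with 1 mean per mixture, with 2 residual and 6.69 prior degrees of freedom, and probes were called at a Benjamini-Hochberg adjusted p under 0.05. For each probe the spread was shared by both mixtures, although ratios spread more widely on the arrays of mixture 1. The fit was tested on simulated data with normal noise of equal size for all probes of a mixture. Shifts were added in mixture 1 alone. That setting is simpler than these arrays, so it does not measure error rates here. RT210B was on every array, so its own spread is left out, and since nothing says that replicates were separate cultures, p-values measure the spread between arrays alone, possibly a technical one; the number of arrays limits the precision (median SE 0.313 for a mixture). Members and gene lists were chosen with earlier results of these data known. The genes named are the members, the measured genes of the fixed junction lists and the 3 nearest probes of each member. Alternatives were no centring, scaling to one spread, each spot alone, each array left out, a replicate block, each mixture on its own arrays and removal of the lowess trend on the duplicate gap. With the same channel assignment on every array, a difference between channels cannot be told apart from one between pools.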

Additional observations from a re-analysis of the deposited data

Results flagged for a closer look

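CDH6, a type II cadherin, lay on the positive side on both arrays of mixture 1 (0.38 and 0.90) and on the negative side on both arrays of mixture 2 (-0.91 and -0.63), a difference of 1.41. It drew attention because the arrays of each mixture were all on opposite sides of the middle. Among the 6 member probes and 17 junction list genes it was the only gene flagged. How many of all probes have this pattern was not counted. The wider pattern, arrays of the mixtures that do not overlap, held for 62.2% of all probes. The difference did not pass in limma (Benjamini-Hochberg adjusted p 0.115).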

How the results depend on the processing

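Of the 18 member values (6 probes in mixture 1, in mixture 2 and in their mean), 13 kept their side under each alternative run and 5 did not, namely CDH5 and DLG5 in mixture 1 and CDH11 and both GJA1 probes in mixture 2. Several alternatives could not change a side, as described above for the values of a mixture. The count of member probes at least 2-fold on both arrays fell from 1 to 0 in mixture 1 and from 2 to 0 in mixture 2 with the trend on the duplicate gap removed, and to 1 in mixture 2 with the second spot alone. With an array left out, the mixture 1 count ran from 1 to 3, since it then rests on 1 array. The limma counts over all probes moved more. Scaling the arrays to one spread gave 231 calls in mixture 1 (497 as reported) and 262 in mixture 2 (0 as reported), with 1 and 4 junction list genes. With the trend on the duplicate gap removed there were 185 calls in mixture 1, 2 of them junction list genes, and in the mean of both mixtures 0 calls (446 as reported), of which 0 were junction list genes. Without centring 206 probes passed in mixture 2, all negative, with 4 junction list genes, 47 passed for the difference between the mixtures, and 10 junction list genes passed in the mean. Fitted on its own arrays, without the spread shared with mixture 1, mixture 2 had 113 calls, 1 of them a junction list gene. With an array left out, calls ran from 0 to 113 in mixture 2 (junction list genes 0 to 1), from 219 to 505 in the mean (2 to 7) and from 0 to 213 for the difference. A mixture left with 1 array is then assumed to vary like the other. The replicate numbers did not pair the arrays (correlation of same-numbered deviations -0.0979); with the replicate number as a block 36 probes passed for the difference, 471 in mixture 1 and 428 in the mean, and of the junction list calls ITGA7 in mixture 1 was lost (limma adjusted p 0.0528). The cause of these shifts was not tested. No intensities were used here, so signal over background sets no limit that could be stated.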
